A study of Homo sapiens with 4 samples.

Results

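HepG2, a human hepatocellular carcinoma line, was grown without treatment, and its poly(A) RNA was immunoprecipitated with an antibody against N7-methylguanosine (m7G) and sequenced beside input RNA, a method called m7G MeRIP-seq. The design held 2 input samples and 2 m7G immunoprecipitation (IP) samples of this 1 line. Separate cultures are not named in the labels for the 2 IP samples, so their spread may be technical. Each IP sample has 1 peak list made by the authors, with 3355 peaks in IP replicate 1 and 4747 in IP replicate 2. The peaks described here are those with identical boundaries in both lists. They were chosen by equality of chromosome, strand, gene name, start, end, block sizes and block starts, and a position was counted once. This gave 220 peaks in 216 genes, out of 7882 distinct peaks of both lists together. All 220 carried the name of a protein-coding gene.

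The 220 identical peaks were 6.56% of the replicate 1 list (95% Wilson interval 5.77 to 7.45%) and 4.63% of the replicate 2 list (4.07 to 5.27%). Intervals here cover counting error only, since peaks of 1 gene are not independent. A further 1908 pairs of peaks of 1 gene and strand shared 50% or more of the shorter peak without being identical. The remaining 1227 peaks of replicate 1 and 2619 of replicate 2 had no such partner. Boundaries, folds and p-values all come from the same enrichment analysis of each IP sample, so the rule counts as having used them. Comparisons of identical with other peaks are therefore descriptions, and no test was run on them.

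N7-methylguanosine is best known as the cap that closes the 5' end of every mRNA, where it protects the RNA and recruits the translation machinery. The same base can also occur inside RNAs, where the METTL1 and WDR4 methyltransferase places it in tRNAs and some mRNAs. An antibody against m7G can bind the base in either place. A peak in such data is a stretch of RNA with more IP than control reads, and its fold enrichment is the ratio the authors' caller reported.

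Some identical peaks began at the annotated first base of a gene. The capped ends of the RNAs in these cells were not measured here. Of the 220 peaks, 173 had an entry in the RefSeq promoter table (build GRCh38.p14), 54 began within 20 nt of the transcript start given there, and 7 began exactly at it. The first 30 bases of the annotated transcript are shown for these 7, read 5' to 3' on the gene's strand as DNA. Capitals mark bases inside the peak.

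ATP6V0C (chr16:2513726-2513755, plus strand): CCAACGCTGCGGAGATCCAGAGGCCGGCGG
FAM168B (chr2:131093431-131093460, minus strand): GTCGGCGGCTCCGGTGGCTGCGCAGCGTCG
HCFC1R1 (chr16:3024257-3024286, minus strand): AACCTCACGAGGCCTTACGTGCCTAGAGCG
LRRC59 (chr17:50397494-50397523, minus strand): ACGGAAGTGGTCGTCGTCGCGGCACCGGTG
PIGQ (chr16:569968-569997, plus strand): GGAAGTGGGGCTCGGGTCCCGCGGCGGGGC
SNF8 (chr17:48944813-48944842, minus strand): GCAGATGACGCGCGGCTCGGGCTTCCGCCT
STK39 (chr2:168247566-168247595, minus strand): GCTCCCTCCCCTCCTAGCTGGCTTCGGCGG

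Five-prime ends of other high-fold identical peaks did not sit on the annotated first base. These are shown to compare where the peak opens.

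RNF149 (chr2:101308672-101308701, minus strand): GACCCCGCCTCAGTCTTCCAGGGCGGCGGT
THOC6 (chr16:3024035-3024064, plus strand): ACAGCCGCGAGGTTCTGCGCGGGCGCGGAA
PPP1R14B (chr11:64246914-64246943, minus strand): gaGACAGAGAAAGCGCTTCGGCGGCTGCAG
TSPAN33 (chr7:129144707-129144736, plus strand): ctgggcgccTGGCTGGCCGGGCTGGTCCTG
TRNP1 (chr1:26993692-26993721, plus strand): ggggtgggggctGTGGCCGTGTCTAGCTGT

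The RNF149 peak opened 15 nt and the THOC6 peak 4 nt before the RefSeq start, so all 30 bases of each lie inside. The peaks of PPP1R14B, TSPAN33 and TRNP1 opened 2, 9 and 12 nt after it. Over the first 50 bases of the transcript, the 54 genes with an identical peak starting there averaged 74.3% G plus C. The genes of other peaks starting within 20 nt averaged 74.8% in both lists (275 genes in replicate 1 and 259 in replicate 2). The average was 69.9% over the 3053 genes with any peak and an entry, and 63.6% over 15843 protein-coding genes. G alone made up 43.1% of the bases of the 54, and 41.9% and 42.1% of those of the other start peaks. It was 38.0% over the genes with any peak and 33.8% over protein-coding genes. The motif GGCGG, searched on the RNA strand only, was in 26 of the 54 windows (48.1%), compared with 45.1% and 45.6% of the windows of other start peaks. Its share was 34.6% over the genes with any peak and 22.3% over protein-coding genes. GGAG was in 30 of the 54 (55.6%), compared with 51.6% and 50.6%, with 45.2% over the genes with any peak, and 40.3% over protein-coding genes. The starts under identical peaks were thus as rich in G and C as those under other start peaks, and richer than those of genes at large.

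Identity of boundaries was a statement about steps of 30 nt, not about single bases. Among the 1908 overlapping pairs that were not identical, the smallest non-zero shift of a boundary was 29 nt. For unspliced pairs, 848 of 883 differing 5' boundaries (96.0%) and 932 of 970 differing 3' boundaries (96.1%) were apart by a multiple of 30 nt within 1 nt. Of all 1908 pairs, spliced ones included, 491 (25.7%) shared the 5' boundary, 354 (18.6%) shared the 3' boundary, and 1063 (55.7%) shared neither. The replicate 2 peak was the longer one in 1126 pairs and the replicate 1 peak in 697.

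**Figure D1:**
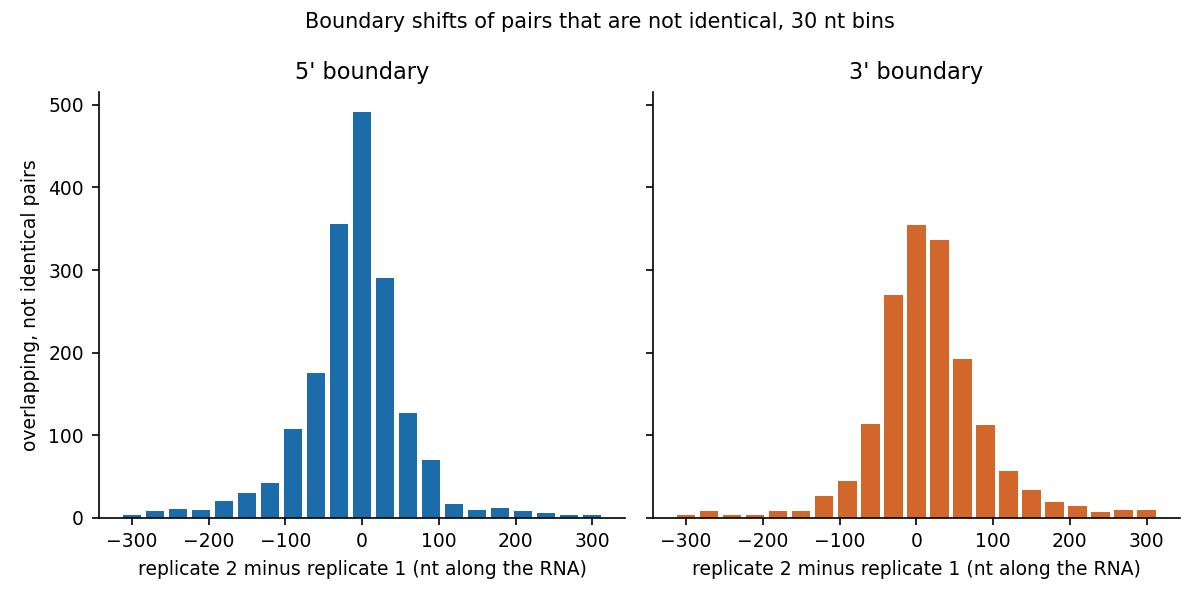
Shift of the 5' boundary (left) and the 3' boundary (right) from IP replicate 1 to IP replicate 2, for the 1908 overlapping pairs that are not identical. Shifts are in genomic nt, read in the direction of the RNA, in 30 nt bins. Introns count in the shift of spliced pairs, and pairs shifted by more than 315 nt either way are not drawn. Bars count pairs, and the tallest bar on each side, 491 and 354 pairs, is at no shift.

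The pairs just outside the rule were 368 pairs that differed by 1 step at 1 boundary. Their median fold was 4.17 in replicate 1 and 4.02 in replicate 2, against 4.23 and 4.22 for the identical peaks. Their median -log10 p was 8.40 and 7.88, against 9.70 and 8.86, and 38.3% lay at the 5' end of the gene by the midpoint of the replicate 1 peak. Their median length was 207.5 and 209 nt, above the 181 nt of the identical peaks, and 36.1% were spliced, against 34.5%. The nearest pairs thus lay close to the identical ones in fold, p, position and splicing, and were longer.

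Identical peaks had smaller p than other peaks, and their length was like that of other overlapping peaks. Their median length was 181 nt (interquartile range 151 to 270 nt, lowest 60 and highest 957), and that of all other peaks was 151 nt in both lists. The other overlapping peaks had medians of 181 nt in replicate 1 and 211 nt in replicate 2, and peaks without a partner 119 and 121 nt, so the gap to all other peaks came with the peaks that had no partner. Among the 50% of each list with smallest p the identical and other medians were both 211 nt, and in genes with 1 peak in each list they were 181 and 180 nt. Their median -log10 p of 9.70 in replicate 1 and 8.86 in replicate 2 stood against 6.84 and 7.72 for other overlapping peaks and 5.30 and 5.02 for all other peaks. Of the peaks of 61 nt or less, 2.10% in replicate 1 and 1.57% in replicate 2 were identical. Of peaks above 151 and up to 181 nt, 9.61% and 7.01% were. Of peaks with a -log10 p above 50, 21.6% of 125 in replicate 1 (Wilson interval 15.3 to 29.6%) and 19.8% of 111 in replicate 2 (13.5 to 28.2%) were identical, compared with 1.68% of 772 and 1.23% of 1301 with a -log10 p of 4 or less. The share thus rose with -log10 p over every bin and, above 151 nt, stayed between 9.11 and 10.1% in replicate 1 and between 6.74 and 7.01% in replicate 2.

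**Figure D2:**
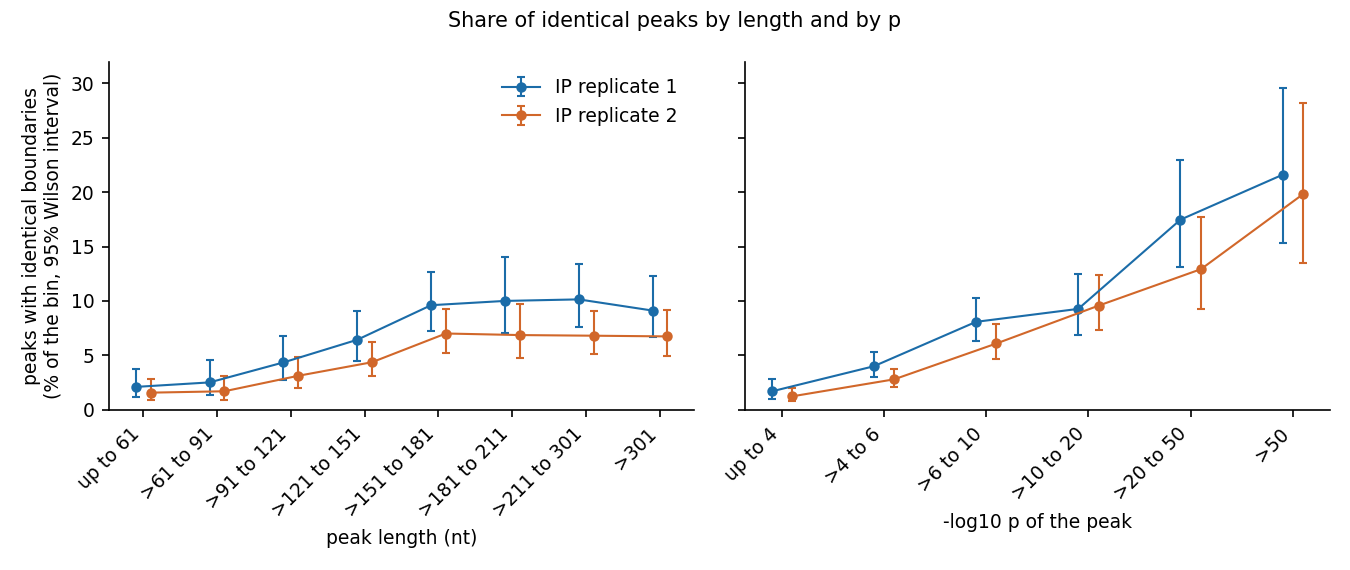
Share of peaks with identical boundaries, in percent of the peaks of each bin, by peak length in nt (left) and by -log10 p (right) for both IP replicates. Points are shares and bars are 95% Wilson intervals; the share is lowest, 1.23 to 2.10%, in the shortest and weakest bins and highest, 19.8 and 21.6%, in the bin with the smallest p.

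The smallest p of all identical peaks belonged to FTH1, the ferritin heavy chain that stores iron, on chromosome 11 from 61965475 to 61967630 (GRCh38). Its -log10 p was 916 in replicate 1 and 738 in replicate 2, the highest of either list, while its fold was 2.70 and 2.53. FTH1, MGAT4B and JUND were named after their values were seen. A2M, a secreted protease inhibitor of plasma, had a peak on chromosome 12 from 9113474 to 9115962 with a -log10 p of 829 and 378 and folds of 5.63 and 3.40. HNRNPL, a regulator of splicing, had 198 and 137, and the folds 7.02 and 6.80. MGAT4B, a glycosyltransferase, had 136 and 107, with folds of 3.36 and 2.96. JUND, an AP-1 transcription factor, had 113 and 111 and was the 1 identical peak with equal folds, 2.11 in each list. Small p occurred with lower and higher folds too, as in IGF2, with 117 and 136 at folds of 1.69 and 1.66, and in ZNF787, with 110 and 117 at folds of 15.3 and 18.0.

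Fold enrichment of the identical peaks ranged from 1.20 to 51.9 in replicate 1 (median 4.23) and from 1.23 to 75.9 in replicate 2 (median 4.22). All other peaks had medians of 3.71 and 3.87, so the difference was 0.435 as the mean of the lists. It turned around when long peaks were left out. At 181 nt or less, the median fold of the identical peaks was 3.49 as the mean of the lists, compared with 3.69 for the other peaks. Of the 220, 13 had a fold above 10 in both lists and 23 a fold under 2 in both.

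The 25 identical peaks with the best lower rank by fold lay in genes of varied function, and 14 of the 25 had their midpoint within 200 nt of the gene's 5' end. TSPAN33, a tetraspanin of the cell membrane, had a fold of 27.8 in replicate 1 and 75.9 in replicate 2 on chromosome 7 from 129144716 to 129144896. PKP4, a catenin-family protein of cell junctions, had 51.9 and 38.0, and its spliced peak ran on chromosome 2 from 158456880 to 158533200. Both stood above every other identical peak in the lower of the 2 folds. Their -log10 p was 11.0 and 11.7 for TSPAN33, and 9.91 and 7.84 for PKP4. The medians of the identical set were 9.70 and 8.86. Read counts behind these folds are not given, so a small control count under a high fold was not tested.

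Among genes of transcription and chromatin, NELFB, part of the NELF complex that pauses RNA polymerase II, had folds of 15.5 and 22.0 on chromosome 9 from 137255300 to 137255599. ZNF787, a zinc finger gene, had 15.3 and 18.0 in a single block of 803 nt on chromosome 19 from 56087749 to 56088551. FOSL2, a subunit of AP-1, had 13.2 and 44.3 on chromosome 2 from 28392912 to 28393120. The homeobox factor PBX2 had 11.1 and 15.9, the BTB-domain repressor NACC2 had 10.6 and 12.7, and SRF, the serum response factor, had 8.48 and 12.7.

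Genes of RNA processing, THOC6 of the THO mRNA export complex and TSEN54 of the tRNA splicing endonuclease, had folds of 19.1 and 23.2, and of 14.8 and 9.04. Genes of membranes and trafficking were the lipid kinase PI4K2B (14.8 and 25.3), TM9SF3 of the endomembrane system (20.2 and 13.0), PIGQ of GPI anchor synthesis (9.54 and 13.9), the phospholipid flippase ATP11B (18.5 and 9.04) and TOMM40, the import pore of the mitochondrial outer membrane (9.48 and 9.49). Genes of signalling were STRN4, a striatin that binds phosphatase PP2A (20.4 and 12.3), the kinase AKT2 (11.3 and 8.48), the phosphatase inhibitor PPP1R14B (8.35 and 11.6) and the semaphorin SEMA4C (8.35 and 14.8). The others were HCFC1R1 (15.6 and 13.2), the ubiquitin ligase RNF149 (10.4 and 15.8), VKORC1L1, a relative of the vitamin K epoxide reductase (9.70 and 10.0), MPND (9.27 and 13.4), CLPTM1L (8.48 and 10.9) and TRNP1 (9.66 and 8.91). Of these 25 peaks, VKORC1L1, TOMM40 and TRNP1 had the closest folds. High fold did not mean small p, since PI4K2B had a -log10 p of 5.66 and 8.28 whereas TRNP1 had 161 and 96.5.

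**Figure D3:**
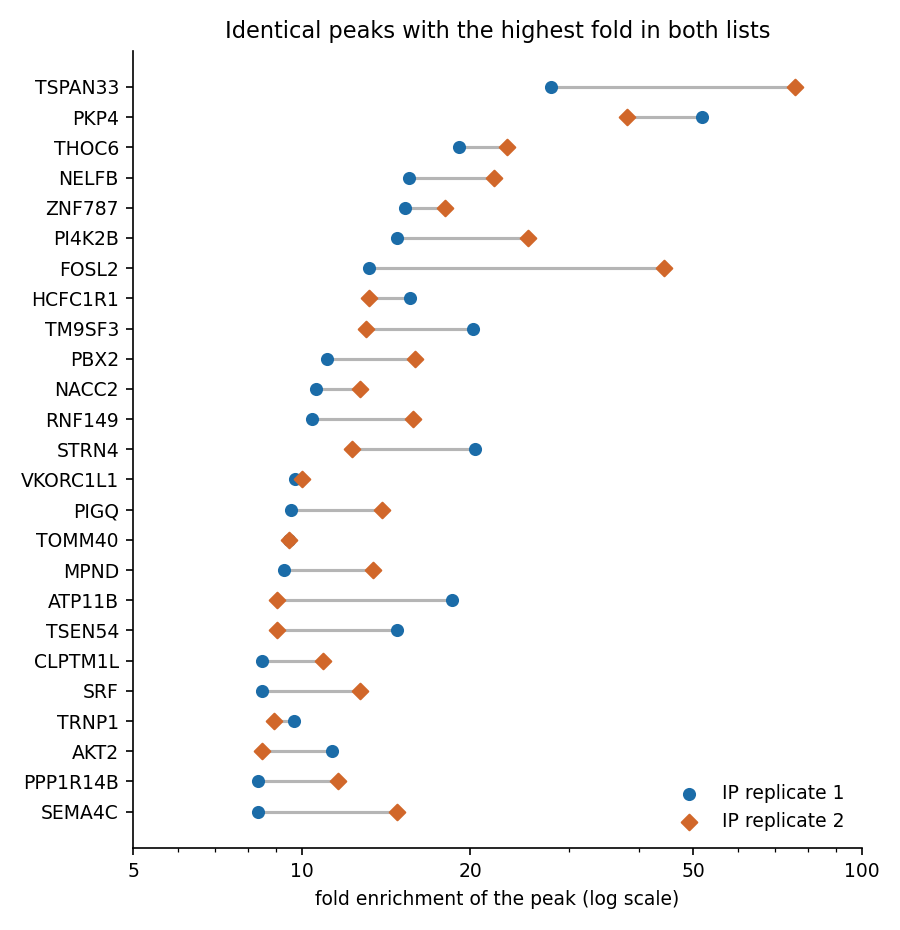
Fold enrichment (log scale) of the 25 identical peaks with the best lower rank by fold, 1 gene per row, in IP replicate 1 (circles) and IP replicate 2 (diamonds). TSPAN33 and PKP4 are highest, and the folds of TOMM40, 9.48 and 9.49, lie on each other.

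At the other end, 23 peaks had a fold under 2 in both lists. How abundant their mRNAs were was not analysed here. The glycolytic enzyme gene GAPDH had folds of 1.35 and 1.25, APOB, the apolipoprotein of VLDL and LDL, had 1.25 and 1.23, and the growth factor gene IGF2 had 1.69 and 1.66. Of these 23 peaks 1 lay at the 5' end, that of the trafficking GTPase gene RAB1A (1.72 and 1.65).

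The folds of both lists were then set side by side at identical and other overlapping peaks. The folds lay within 1.5 times of each other at 177 of the 220 identical peaks (80.5%, Wilson interval 74.7 to 85.2%) and at 1368 of the 1908 other pairs (71.7%, 69.6 to 73.7%). The gap of 8.76 percentage points was 2.77 against pairs with 80% reciprocal overlap (80.5 and 77.7%), and 2.42 among the smaller-p peaks of each list (79.5 and 77.1%). Over all 2128 overlapping pairs, 27.4% were further apart than 1.5 times, 11.5% with the higher fold in replicate 1 and 15.9% with the higher fold in replicate 2. Among the identical peaks 43 were further apart, 28 with the higher fold in replicate 1 and 15 in replicate 2. Overall 126 of the identical peaks (57.3%) had the higher fold in replicate 1, and 821 of the other pairs (43.0%) did. The folds ranked together with Spearman's rho = 0.89 over the 220 peaks and 0.79 over the other pairs, across peaks that share their libraries and that are not replicates. The headers do not name the control behind each fold.

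Identical peaks with the widest gap in fold were of both directions. CASD1, a sialic acid acetyltransferase, had 7.42 in replicate 1 and 34.8 in replicate 2, a ratio of 4.69. FOSL2 and TSPAN33 were also higher in replicate 2, by ratios of 3.36 and 2.73. PCMTD2 had 14.8 and 5.06, LYZ, the lysozyme gene, had 6.73 and 2.36, and the endocytic receptor gene LRP1 had 17.5 and 7.59. CSNK2A2, a catalytic subunit of casein kinase 2, had 7.12 and 3.07, and the chromatin-associated ANKRD11 had 5.86 and 2.69. In 3 of these 8 peaks the higher fold was in replicate 2. Exact agreement of boundaries thus occurred beside gaps in fold of up to 4.69 times. The commonest single fold of each list, 7.42 in replicate 1 and 6.33 in replicate 2, was the value of 11 identical peaks (5.00%) and 9 (4.09%), compared with 3.06% and 4.13% of other peaks.

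**Figure D4:**
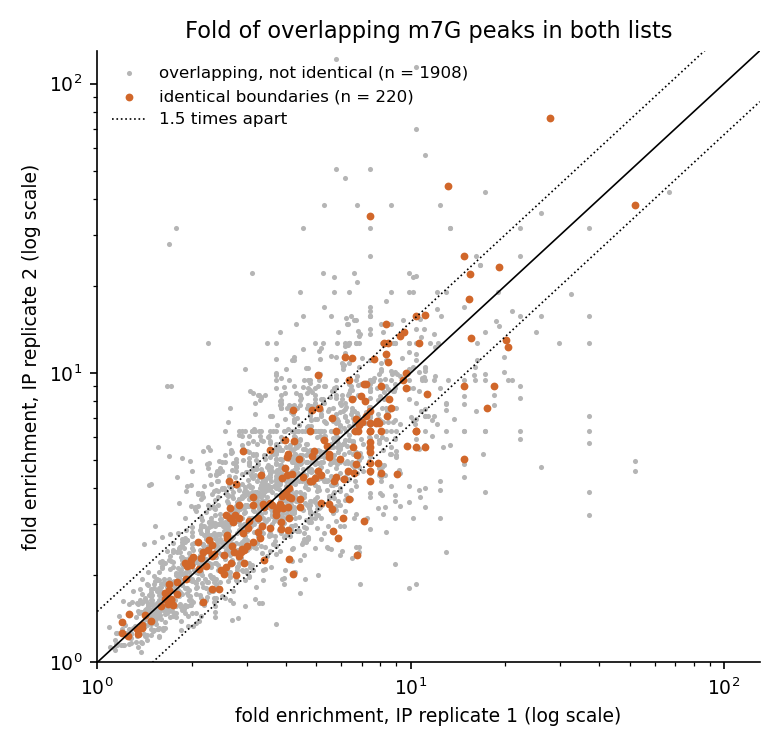
Fold enrichment of overlapping peaks in IP replicate 1 (x axis, log scale) and IP replicate 2 (y axis, log scale), 1 point per pair, for 220 identical peaks (orange) and 1908 other overlapping pairs (grey). The solid line marks equal folds and dotted lines 1.5 times apart; 80.5% of the orange and 71.7% of the grey points lie between the dotted lines, and 77.7% of other pairs do at 80% reciprocal overlap.

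Identical peaks were more often at the 5' end of genes than all other peaks, with a share close to that of the pairs 1 step apart. A peak was counted at an end when its midpoint, taken along its blocks, was within 200 nt of that end of the RefSeq gene span or beyond it. Of the 220, 92 (41.8%, Wilson interval 35.5 to 48.4%) were at the 5' end, where 27.4% of all placed peaks of replicate 1 and 21.7% of those of replicate 2 were. Of the overlapping pairs that were not identical, 28.5% of the replicate 1 and 26.8% of the replicate 2 peaks were at the 5' end, and of peaks without a partner 23.1% and 16.2%. Of the 368 pairs 1 step apart, 38.3% were at the 5' end by the replicate 1 peak, a share within the Wilson interval of the identical peaks. The mean difference between identical and all other peaks was 18.3 percentage points, 15.4 in replicate 1 and 21.1 in replicate 2. At the 3' end were 11 identical peaks (5.00%, 2.81 to 8.73%), compared with 3.42% and 3.39% of the other peaks, and 53 (24.1%) lay over 1000 nt from both ends, compared with 34.7% of the replicate 1 peaks in other pairs and 46.4% of those without a partner. Midpoint distances are genomic and include introns, and UTR and coding positions were not analysed here.

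**Figure D5:**
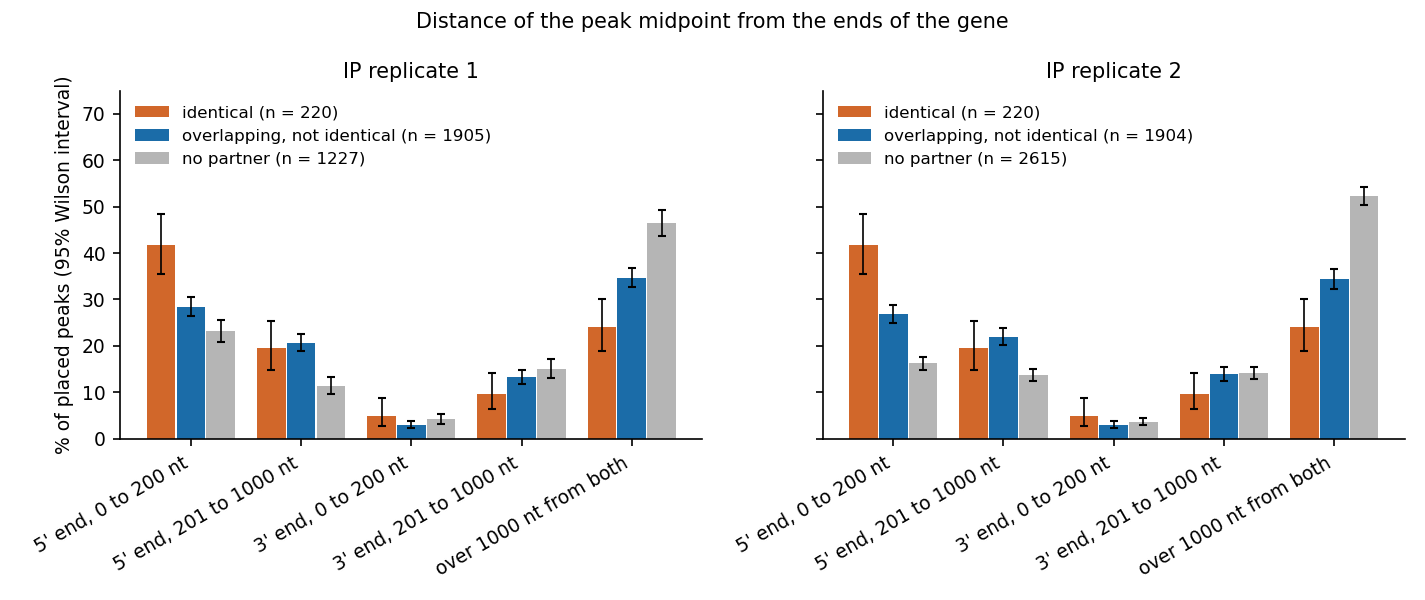
Percent of placed peaks by the distance of their midpoint from the ends of the gene span, in IP replicate 1 (left) and IP replicate 2 (right), for identical peaks (orange), other overlapping peaks (blue) and peaks without a partner (grey), with 95% Wilson intervals. Compared with the other classes, the identical peaks have the highest share within 200 nt of the 5' end, 41.8%, and the lowest share over 1000 nt from both ends, 24.1%. Pairs 1 step apart, 38.3% of them at the 5' end by the replicate 1 peak, are part of the blue bars.

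Part of the 5' position was seen at the boundary itself. Of the 220 peaks, 63 (28.6%, Wilson interval 23.1 to 34.9%) began within 20 nt of the 5' end of the gene span, against 9.87% of the other peaks of replicate 1 and 6.82% of those of replicate 2. The part of such shared starts in the count of identical peaks was not tested. Of the 63, 49 had their midpoint at the 5' end too, and 28 were spliced.

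Within the identical set, the 92 peaks at the 5' end had median folds of 5.83 in replicate 1 and 4.60 in replicate 2, and the 117 at neither end had 3.86 and 3.50. At the 5' end 68 of 92 (73.9%) had folds within 1.5 times, and 60 (65.2%) had the higher fold in replicate 1. Away from it these numbers were 109 of 128 (85.2%) and 66 (51.6%). Other overlapping pairs at the 5' end had folds within 1.5 times in 58.7% of 542 pairs and elsewhere in 76.9% of 1366. Folds were therefore further apart at the 5' end in both kinds of pair. The 11 identical peaks at the 3' end had folds from 1.35 to 11.1 in replicate 1 and from 1.25 to 7.59 in replicate 2. They included the F-actin capping gene CAPZB (3.87 and 2.89) and CLPTM1 (4.07 and 2.86).

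Head-to-head genes gave identical peaks on both strands of the same sequence in 2 places. HCFC1R1, on the minus strand of chromosome 16 from 3023990 to 3024286, had folds of 15.6 and 13.2, and THOC6, on the plus strand from 3024031 to 3024300, had 19.1 and 23.2. The peaks overlapped by 256 nt, and their transcript starts are printed above. YRDC, whose product modifies tRNAs, and C1orf122 overlapped by 393 nt on chromosome 1. Their folds were 6.56 and 5.55, and 7.42 and 5.57. The library kit keeps strand, per the labels' protocols, but how reads were counted is not given in the sources used here. Reads of the 2 strands can therefore not be told apart from these lists.

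Spliced peaks, which join blocks across an intron, made up 76 of the 220 (34.5%, Wilson interval 28.6 to 41.0%), compared with 25.8% of the other peaks of replicate 1 and 27.9% of those of replicate 2. The other overlapping peaks were spliced in 29.2% and 33.1%, and the pairs 1 step apart in 36.1%, so the share was not above that of the nearest pairs. Of the spliced ones 66 had 2 blocks, 9 had 3 and 1 had 4. For spliced identical peaks, every exon junction had to be the same in both lists. The genomic sequence left out had a median of 2130 nt and reached 121079 nt in NEDD4L, a ubiquitin ligase (folds 4.85 and 4.25), 117364 nt in SNTB1, a syntrophin (3.99 and 3.87), and 75961 nt in PKP4. HNRNPL joined blocks of 47, 119 and 44 nt, and its peak began 8 nt from the gene's 5' end although its midpoint lay 4973 nt into the gene. SP2, a GC-box transcription factor, likewise joined 54, 77 and 49 nt (folds 7.42 and 5.80) from 4 nt into the gene. The spliced peaks had the higher fold in replicate 1 in 53 of 76 (69.7%), and the unspliced ones in 73 of 144 (50.7%). In other pairs spliced in replicate 1 this was 49.8% of 558.

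The longest identical peaks lay in ARID3A, a DNA-binding factor, with 957 nt in 3 blocks (folds 4.92 and 5.40), in SNTB1 with 810 nt, and in ZNF787 with 803 nt. Those of UBE2R2, a ubiquitin-conjugating enzyme (659 nt, 5.50 and 3.54), C1orf122 (623 nt), IGF2 (539 nt), the transcription factor SOX12 (538 nt, 6.51 and 11.3) and PABPC1, the poly(A)-binding protein (537 nt, 2.49 and 2.09), followed. The 39 peaks over 300 nt had a median -log10 p of 46.6 and 33.9, and the 21 peaks of 100 nt or less had 4.21 and 3.84. Length and p thus moved together inside the set.

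Most genes had 1 identical peak. ZNF787, A2M, CLPTM1 and TRIM8 had 2 each. The second ZNF787 peak spanned 3 blocks from 19 nt before the gene's 5' end and had folds of 2.74 and 2.40, far below the 15.3 and 18.0 of the first. A2M had 5.63 and 3.40 at 401 nt from the 5' end and 1.20 and 1.38 at 17567 nt. CLPTM1 had 10.4 and 6.33 near the 5' end and 4.07 and 2.86 near the 3' end. TRIM8, a ubiquitin ligase, had 2.28 and 2.65 near the 5' end and 1.70 and 1.78 inside the gene. In 111 of the 220 the identical peak was the gene's only peak in both lists. Within replicate 1 alone, 65.9% of identical and 56.4% of other peaks were the gene's only one, and within replicate 2 54.1% and 46.8%. Of the 111, 58 (52.3%) lay at the 5' end. The share was 39.3%, as the mean of the lists, for the other peaks of genes with 1 peak in each list.

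Genes were also counted by function. An identical peak was present in 216 of the 1945 genes with peaks in both lists (11.1%), and each list below is read beside that share. Splicing factors of the SR and hnRNP families had 3 of 21, which were SRSF9 (folds 7.79 and 6.81), HNRNPL and HNRNPUL1 (2.23 and 2.15). Genes of the spliceosome and RNA helicases had 1 of 8, the splice site factor gene U2AF2 (4.15 and 3.71). Endoplasmic reticulum chaperone and unfolded protein response genes had 3 of 19. These were PDIA6, a disulfide isomerase (3.31 and 2.70), the transcription factor XBP1 (2.76 and 3.24) and the chaperone HYOU1 (2.09 and 2.60). Heat shock and DNAJ chaperones had 0 of 6.

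Of the KLF, SP and ZBTB transcription factors 3 of 12 had an identical peak, ZBTB7A (7.77 and 6.70), SP2 and SP3 (3.06 and 3.09). Chromatin regulators had 1 of 29, the deacetylase gene HDAC5 (7.95 and 6.72), and ZNF genes had 1 of 24. Translation factors had 3 of 15, with low folds in EIF1 (2.18 and 1.62), EIF3G (1.68 and 1.59) and PABPC1. RNA modification enzymes and readers had 1 of 10, the m6A reader gene IGF2BP2 (7.88 and 4.89).

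Signalling genes of the MAPK, Wnt and Notch pathways had 3 of 18, which were the kinases GSK3A (6.92 and 8.33) and MAP2K2 (4.04 and 5.12) and the scaffold AXIN1 (7.42 and 4.22). The list of ubiquitin ligases and deubiquitinases, which also holds conjugating enzymes such as UBE2R2, had 4 of 22. Among these were UBE2M (3.33 and 4.43) and RNF10 (3.03 and 2.92). Vesicle coat, sorting and V-ATPase genes had 4 of 16, the proton pump gene ATP6V0C (2.92 and 2.80), the COPII gene SEC23A (2.71 and 3.06), the clathrin adaptor gene AP2B1 (2.65 and 3.16) and RAB1A. Solute carriers had 3 of 15, which were the amino acid transporters SLC7A5 (3.26 and 2.82) and SLC1A5 (1.74 and 1.58) and the lactate transporter SLC16A3 (1.39 and 1.32). Cyclins and cell division genes had 1 of 11, CCND1 (2.84 and 3.16), the actin cytoskeleton 1 of 14, oxidative phosphorylation 1 of 4, ATP5F1D (4.10 and 3.73), glycolysis 1 of 4, and sterol and fatty acid synthesis 0 of 7. With so few genes a list, no list was called different from the share of all genes.

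Hepatocyte secreted proteins had 2 of 12, APOB and IGF2, and hepatocyte transcription factors 1 of 8, the nuclear receptor gene NR2F6 (1.99 and 2.26). As a check of the label, 10 of 21 hepatocyte markers had a peak, all in both lists, and ALB, AFP and TTR were not among them. Of other cell types, 2 of 12 immune markers (CD68 and LYZ), 0 of 8 endothelial, 1 of 8 stellate and fibroblast and 3 of 6 cholangiocyte markers had a peak. A missing peak does not show a missing mRNA. Hepatocyte and cholangiocyte markers had peaks at similar shares, and 3771 genes had a peak in either list. The counts therefore do not tell these cell types apart and do not decide the label.

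By chromosome, the identical peaks followed the lists at chromosome 19, with 31 (14.1%) against 13.4% of replicate 1 and 13.8% of replicate 2 peaks. Chromosome 2 held 21 (9.55%) against 6.41% and 6.02%, and chromosome 17 held 13 (5.91%) against 8.64% and 8.85%. The 220 were spread evenly over the strands, 112 on the plus and 108 on the minus strand.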

How the data were processed

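The authors deposited 1 peak list per IP sample, per the labels, and the input values were not analysed here. Per the submitters' processing notes, STAR and GRCh38 were used, in roles left unstated. For the peak caller, filters and read depth the sources used here give nothing. Per the file headers, each deposited peak has BED coordinates, exon blocks, a p-value, log10 p and log10 FDR (used as scores of the authors' caller) and a fold enrichment (a ratio per peak, with its libraries and scaling unnamed). The deposited p-value matched the log10 p within 0.02 and is listed as 0 for 9 and 4 peaks, 2 identical ones in each list. The weakest FDR had a -log10 of 1.32. Starts were raised by 1 to count from 1.

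Names were matched to RefSeq GRCh38.p14 by symbol (3213 and 4540 peaks) or an overlapping older symbol (139 and 199), leaving 3 and 8 unplaced; all 220 identical peaks matched, 5 by an older symbol, and 218 overlapped the gene span. Overlapping peaks were paired 1 to 1 by largest reciprocal overlap. No genome sequence was used, so sequence comes from the RefSeq promoter table. Named genes were the 25 best by the lower fold rank among identical peaks, the 8 longest, the 8 with the widest fold ratio, up to 4 per gene list by rank, and genes with 2 identical peaks. Other genes with a printed value are marked as chosen later or have a printed sequence or an overlap on the other strand. A gene and a list that the rule covers are not reported here. Members, lists and rules were chosen with earlier results of these data known. Matching was tested on simulated lists. Scripts ran in Python 3.11.15 with pandas 2.3.3 and numpy 2.4.6, intervals came from scipy 1.17.1, and figures from matplotlib 3.10.9.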

Additional observations from a re-analysis of the deposited data

How the results depend on the processing

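The count of 220 was 220 with outer boundaries alone and 166 in the 50% of peaks with the smallest p. It was 220 within 10 nt, a setting that could add no pair because the smallest non-zero shift was 29 nt. It was 744 within 50 nt, which admits pairs 1 step apart by construction. The excess of identical over other peaks at the 5' end, 18.3 percentage points, was 13.0 in genes with 1 peak in each list and 15.4 to 21.1 under the 7 other alternatives run. The excess in median length, 30 nt, was 0 for the smaller-p peaks, 43.3 within 50 nt and 1.0 in genes with 1 peak. The excess in median fold, 0.435, was 0.293 in unspliced peaks, 0.230 within 50 nt and -0.193 for peaks of 181 nt or less, a reversal. The excess in folds within 1.5 times, 8.76 percentage points, was 2.42 for the smaller-p peaks and 2.77 against pairs with 80% reciprocal overlap. The cause was not tested. The spliced share kept its excess over all other peaks, 6.59 to 9.10 percentage points, in the 5 alternatives run. Beside the pairs 1 step apart there was no excess, with 34.5% of identical peaks and 36.1% of those pairs spliced. Without one replicate the excess was 15.4 to 21.1 percentage points at the 5' end and 0.35 to 0.52 in fold. No paired analysis was possible because the inputs, which carry the same numbers, have no values here. Unknown read depth bounds what either list could hold.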
